A study of Mus musculus with 2 samples.

Results

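The mitochondrial ribosomal protein genes of the mouse liver were followed in a table of accessible chromatin regions. The members are all regions in the table whose closest gene carries a symbol starting with *Mrpl* or *Mrps* and a number. They comprised 112 of the 69549 distinct regions and 68 of the 14583 symbols in the table. A region was taken as a promoter when its centre lay within 1000 bp of the gene start, with the strongest region kept for each gene. By this rule 60 of the 68 genes had a promoter region, 37 of them named for the large subunit (*Mrpl*) and 23 for the small subunit (*Mrps*), against 14387 promoter regions in all. The other 52 member regions lay outside the promoter window.

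Accessibility was measured by ATAC-seq, in which the Tn5 transposase cuts open chromatin and tags it for sequencing, so that more reads over a region mean more open DNA. Liver nuclei came from C57BL/6 mice on normal chow at 8 weeks of age, and the livers of 4 mice were pooled into 1 library for each genotype. The control library was from Mettl3 flox/flox mice, which carry the floxed alleles without Cre, and the other from Mettl3-HKO mice (Mettl3 flox/flox Alb-Cre+/-), in which Cre under the albumin promoter acts mainly in hepatocytes, while other liver cells keep the gene. The comparison asks how the loss of *Mettl3*, which encodes the catalytic subunit of the RNA m6A methyltransferase, in hepatocytes goes with open chromatin. With 1 library per group there was no replicate error, and no comparison tests the genotype across mice.

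The mitochondrial ribosome is made of RNA encoded in mitochondrial DNA and of proteins that are all encoded in the nucleus, made in the cytosol and imported. It translates the few subunits of the oxidative phosphorylation complexes that mitochondrial DNA encodes, so its proteins are needed for respiration in cells rich in mitochondria, such as hepatocytes. Some of its proteins descend from those of the bacterial ribosome, and others were gained by the mitochondrial ribosome and have no bacterial counterpart.

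The authors' scaling put the control library at 52826202 reads and the Mettl3-HKO library at 58038305, of which 31.7% and 22.3% lay on the regions. Log2 ratios divide Mettl3-HKO by control on that scale, with 1 read added to each count, and the median over all regions was −0.38. The libraries were set beside cell type markers. All 8 hepatocyte markers had a promoter region, summing to 72.6 RPM (reads scaled to a common library size) in the control and 49.7 in the Mettl3-HKO library, at a median log2 ratio of −0.68. Of 8 endothelial markers, 7 had one, with 3.03 and 7.01 RPM in sum and a median of 1.60, and of 8 macrophage markers 2 had one, with 1.04 and 1.96 RPM. A peak was called in the Mettl3-HKO library alone at 5 of the 7 endothelial and 2 of the 2 macrophage regions. Those regions are listed only through the library where they are high, so their rise does not check the libraries. Median control counts were low, at 19 for the endothelial and 26.5 for the macrophage regions. None of the marker regions was at 0 in either library. Fewer cells of a type and fewer open copies per cell cannot be told apart in pooled tissue, and the part of cell composition in the member values was not tested. The region at the start of *Mettl3* had 566 and 392 reads, which does not check the genotype, since a deletion inside the gene need not touch it.

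Most promoters of the mitochondrial ribosomal protein genes were less open in the Mettl3-HKO library, to about the same degree as other promoters. Together they held 36182 reads in the control and 24196 in the Mettl3-HKO library. The log2 ratio lay below 0 at 58 of 60 promoters, from −1.36 to 0.70 and −0.62 at the median, against a median of −0.56 over all promoter regions. Between the quartiles the members ran from −0.90 to −0.40, and their SD of 0.37 was below the 0.67 of all promoter regions. All promoter regions include 1188 with a peak in the control alone and 1208 in the Mettl3-HKO library alone, while every member had one in both. Neither the spread nor the shares of 2-fold changes that follow were compared with promoters of that kind only. At least 2-fold fewer reads were found at 10 members, or 16.7%, beside 16.3% of all promoter regions, and at least 2-fold more at 0 members, beside 4.07%. An exact binomial test of the counts of the 2 libraries, adjusted over all regions, called 53 members lower (88.3%, beside 71.5% of all promoter regions) and 1 higher, *Mrps18a* (1.67%, beside 7.51%). The 6 members it did not call were *Mrpl23*, *Mrpl28*, *Mrps10*, *Mrps15*, *Mrps18b* and *Mrps25*. This test compares the libraries and covers counting error alone, and it calls more readily where counts are high.

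The direction rests on the scaling. When the median of all regions (−0.38) was subtracted from all ratios, which raises them, 30 members were called lower and 3 higher, beside 44% and 16.4% of all promoter regions. Scaled to the reads on the regions, which subtracts −0.51, 23 were called lower and 5 higher, beside 31.8% and 23.3% of all. Centred on the strongest 10% of promoter regions, which subtracts −0.65, 18 were called lower and 13 higher, beside 21.8% and 33.5%, and the members' median became 0.025. Member promoters at least 2-fold lower numbered 0 under each of these scalings, beside 5%, 3.15% and 1.99% of all promoter regions, in that order. At least 2-fold higher under each was 1 member, *Mrps18a* (1.07, 1.21 and 1.34), beside 993, 1198 and 1419 of the 14387 promoter regions. What did not move with the scaling was the place of a member among the other promoters.

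**Figure D1:**
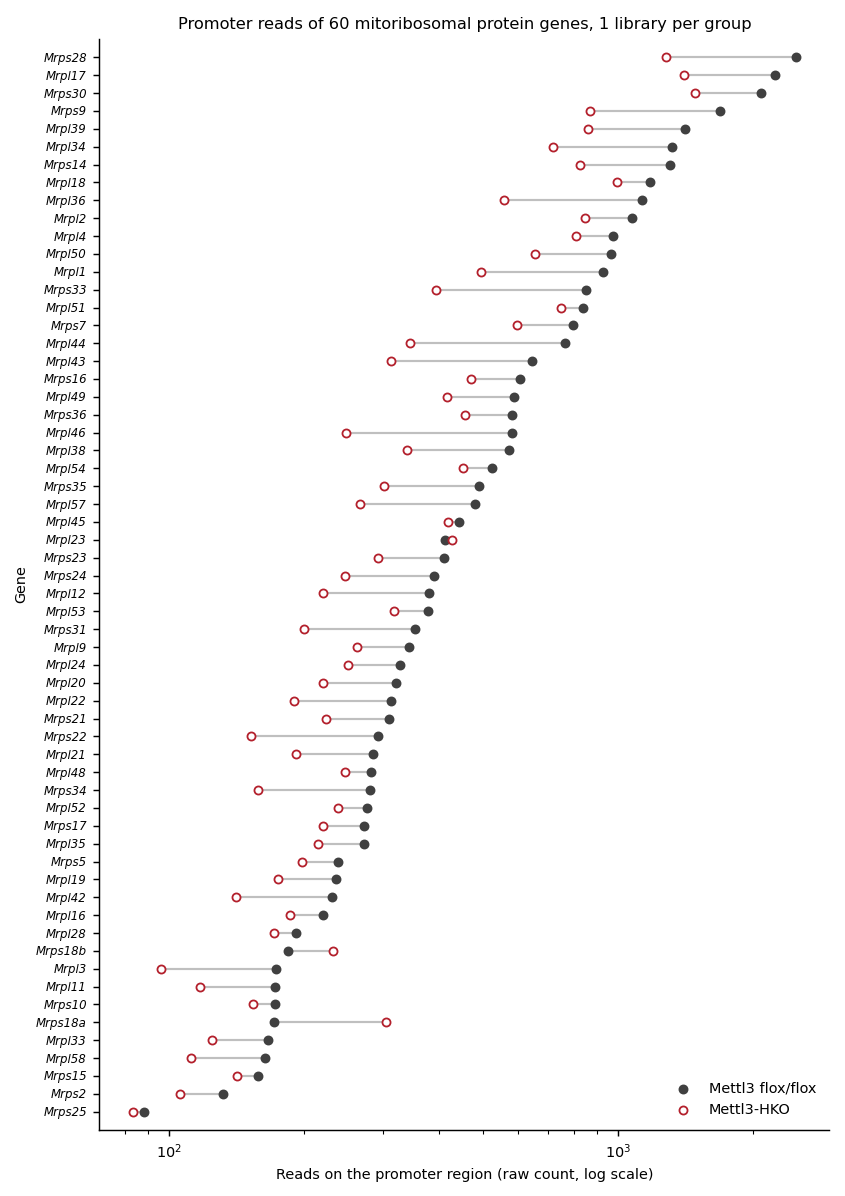
Raw reads on the promoter region of each of the 60 genes (x axis, log scale) in the Mettl3 flox/flox library (filled points) and the Mettl3-HKO library (open points), ordered by the control count. Open points lie to the left of the filled ones in all genes except *Mrpl23*, *Mrps18a* and *Mrps18b*, and there is 1 pooled library per group, so no error bars can be drawn.

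The member promoters were also described by strength and shape. Their median count was 384 in the control and 265 in the Mettl3-HKO library, and their median length was 787 bp. The fold enrichment over the genome had a median of 25.4 and 16.8 in the 2 libraries, beside 25.8 and 16.7 for all promoter regions. A peak was called in both libraries at 60 of 60 members, beside 83.3% of all promoter regions. The region spanned the gene start at 58 members, its centre lay within 250 bp of the start at 53 (67.4% of all promoter regions lay as close), and it was centred after the start at 49 and before it at 11. By the authors' annotation the centre fell in the first exon at 13 members, in the 5′ UTR at 13 and in the first intron at 11. At 16 it was labelled intergenic or given no gene feature, although some of these, such as *Mrps5* and *Mrpl18*, were centred after the start.

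As examples of sequence, the bases just before the RefSeq start were read on GRCm38.p6 for 10 picked genes, which do not stand for the family. They are the lowest promoters with a usable stretch (*Mrpl46*, *Mrps33*, *Mrps9*, *Mrpl36*, *Mrps22*), holders of the ETS or NRF1 letters (*Mrpl22*, *Mrpl32*), genes among those with the highest ratios (*Mrpl45*, *Mrpl23*), and *Mrps18a*, whose RefSeq start lies away from the member region that was called higher. Each runs 5′ to 3′ on the gene's strand and ends at the last base before the start, and capitals mark a match on either strand to the motif letters given after the sequences.
Mrpl46, chr7:78783090-78783130, minus strand: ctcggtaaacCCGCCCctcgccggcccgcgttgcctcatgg
Mrps33, chr6:39810937-39811056, minus strand: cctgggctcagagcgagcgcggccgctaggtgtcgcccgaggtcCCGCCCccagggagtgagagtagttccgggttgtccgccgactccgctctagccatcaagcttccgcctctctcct
Mrps9, chr1:42851113-42851232, plus strand: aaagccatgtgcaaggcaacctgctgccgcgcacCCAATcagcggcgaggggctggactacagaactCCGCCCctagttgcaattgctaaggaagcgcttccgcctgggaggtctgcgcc
Mrpl36, chr13:73330889-73331008, plus strand: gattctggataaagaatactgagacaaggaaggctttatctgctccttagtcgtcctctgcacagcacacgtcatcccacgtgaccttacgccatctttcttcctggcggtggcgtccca
Mrps22, chr9:98601680-98601799, minus strand: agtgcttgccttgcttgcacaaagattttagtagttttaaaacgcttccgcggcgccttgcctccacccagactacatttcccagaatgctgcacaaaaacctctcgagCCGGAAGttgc
Mrpl22, chr11:58171544-58171663, plus strand: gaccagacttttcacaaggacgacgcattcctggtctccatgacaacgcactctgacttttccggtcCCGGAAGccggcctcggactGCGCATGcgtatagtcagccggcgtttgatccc
Mrpl32, chr13:14613038-14613157, minus strand: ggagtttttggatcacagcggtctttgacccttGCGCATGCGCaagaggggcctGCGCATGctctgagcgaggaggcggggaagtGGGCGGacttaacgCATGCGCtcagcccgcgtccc
Mrpl45, chr11:97315596-97315715, plus strand: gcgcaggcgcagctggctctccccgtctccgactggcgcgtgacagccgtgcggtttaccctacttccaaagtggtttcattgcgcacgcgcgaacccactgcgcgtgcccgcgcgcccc
Mrpl23, chr7:142532912-142533031, plus strand: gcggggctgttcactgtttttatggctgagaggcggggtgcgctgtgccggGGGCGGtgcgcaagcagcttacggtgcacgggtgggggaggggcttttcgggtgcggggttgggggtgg
Mrps18a, chr17:46110884-46111003, plus strand: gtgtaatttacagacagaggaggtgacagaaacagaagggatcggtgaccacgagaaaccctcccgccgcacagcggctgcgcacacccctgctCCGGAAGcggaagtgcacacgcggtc

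The letters searched on both strands were GCGCATG for part of an NRF1 site, CCGGAAG for the ETS factor GABPA, ATGGCGG for YY1, GGGCGG for SP1, TATAAA for the TATA box and CCAAT for the CCAAT box. NRF1 and GABPA are known activators of nuclear genes for mitochondrial proteins. Matches to the NRF1 letters can overlap each other, as 1 pair does in *Mrpl32*, whose start lies in a region credited to the divergent neighbour *Psma2*, with 1417 and 1082 reads in the control and Mettl3-HKO library, while *Mrpl22*, with NRF1 and ETS letters, had 312 and 190. In windows from 250 bases before to 50 after the start, sequences were at hand for 53 of the 60 members (59 windows, since some genes have several starts). The ETS letters were in 35.6% of these, in 8.86% of all 32851 promoter windows and in 16.3% of windows of coding genes with a promoter region in the table. The NRF1 letters were in 10.2%, 3.91% and 6.66%, and the YY1 letters in 15.3%, 4.05% and 7.59%. SP1 letters stood in 49.2% of member windows, 35.7% of all and 63% of the coding genes with a promoter region, and the TATA box in 8.47%, 13.6% and 7.23%. The CCAAT box was in 42.4%, 37.4% and 37.9%. ETS, NRF1 and YY1 letters were thus more frequent in the members than in both other sets, though the NRF1 share rests on 6 windows. The CCAAT share was only slightly above the others, and the shares for SP1 and the TATA box lay between those of the other sets. None of these differences was tested, and a gene with several starts counts more than once. These matches are descriptions and not binding sites.

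The ratio was also compared between members with and without these letters. With the ETS letters (21 genes) the median log2 ratio was −0.62 and without them (32 genes) −0.58. It was −0.68 for the 6 genes with NRF1 letters and −0.62 for the 47 without. For YY1 it was −0.47 in 9 genes and −0.65 in 44. With and without the SP1 letters it was −0.59 (24 genes) and −0.62 (29 genes), with and without the TATA box −0.43 (5 genes) and −0.62 (48 genes), and with and without the CCAAT box −0.52 (22 genes) and −0.63 (31 genes). None of these gaps was tested. Across the 53 genes the GC content of the window, with a median of 58%, had a Pearson r of 0.15 with the log2 ratio. At 3 of these genes (*Mrpl20*, *Mrps18a* and *Mrps18b*) the region that gives the ratio does not overlap a window in which the letters were read. For *Mrps18a*, *Mrps18b* and *Mrpl48* the strongest region within 1000 bp of a RefSeq start is another one, and with its ratio in their place the medians above were the same to 2 decimals and r was 0.16.

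The lowest ratios were found at genes of both subunits. *Mrpl46*, a mitochondria-specific protein of the large subunit, had 581 reads in the control and 248 in the Mettl3-HKO library, the order kept for all pairs of counts from here on. Its log2 ratio was −1.36 (95% counting interval −1.58 to −1.15, exact binomial test, adjusted p = 2.29e-37). *Mrpl44*, whose product has an RNase III-like fold and is linked to inherited cardiomyopathy, went from 765 to 344 reads (−1.29, interval −1.48 to −1.10). *Mrps33*, a mitochondria-specific protein of the small subunit, had 852 and 393 reads (−1.25, −1.43 to −1.08). *Mrpl43* had 646 and 313 (−1.18) and *Mrpl36*, the homologue of the smallest protein of the bacterial large subunit, 1136 and 558 (−1.16). All 5 also lay farthest below the promoters of like signal, by 0.70 for *Mrpl46*, 0.62 for *Mrpl44*, 0.60 for *Mrps33*, 0.53 for *Mrpl36* and 0.52 for *Mrpl43*, each on the log2 scale.

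The other 5 promoters past the 2-fold limit followed closely. *Mrps28* had 2501 and 1280 reads (−1.10), and *Mrps9*, the homologue of a bacterial protein of the small subunit, 1692 and 870 (−1.09). *Mrps22*, whose mutations in people cause a combined deficiency of the respiratory complexes, had 293 and 152 (−1.08). *Mrpl1* had 928 and 496 (−1.04) and *Mrpl34* 1320 and 718 (−1.01). Just short of the limit stood *Mrpl57* with 480 and 267 reads and *Mrpl3*, which is placed near the peptidyl transferase centre and linked to cardiomyopathy, with 173 and 96, both at −0.98. The counting interval of *Mrpl3*, from −1.36 to −0.62, was among the wide ones, and the limit does not divide these genes beyond counting error.

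At the other end, *Mrps18a* had more reads in the Mettl3-HKO library, 171 against 305. Its log2 ratio was 0.70 (interval 0.42 to 0.98, exact binomial test, adjusted p = 1.05e-06), the one call in this direction. Its product sits in the large subunit despite its name. This region, chr17:46123890-46124685, is centred at −988 bp from the gene start used in the table, so it falls just inside the window, and its peak is not at the RefSeq start of the gene. At the RefSeq start lies another region, chr17:46110810-46111332, with 172 and 152 reads and a log2 ratio of −0.31 (interval −0.64 to 0.01). With a window of 500 bp no member was called higher. *Mrps18b* had 184 and 232 reads (0.20, interval −0.09 to 0.49) in a region of 242 bp that lies 631 bp inside the gene. The region at its RefSeq start is credited to the neighbour *Ppp1r10* and had 1408 and 1361 reads (−0.18). The values above 0 thus came from regions away from the RefSeq start.

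Of the promoters at a start, *Mrpl23*, a protein at the exit of the peptide tunnel, stood highest with 413 and 427 reads (−0.09, interval −0.29 to 0.11). *Mrpl45*, which anchors the ribosome to the inner membrane, had 442 and 419 (−0.21, −0.41 to −0.02). *Mrps25* had 88 and 83 reads (−0.22), the lowest counts of all members, and *Mrps15* 158 and 142 (−0.29). *Mrpl51* had 837 and 746 (−0.30). Next to promoters of like signal, *Mrps18a* stood 1.28 above, *Mrps18b* 0.77, *Mrpl23* 0.57, *Mrpl45* 0.44 and *Mrpl51* 0.33 on the log2 scale. *Mrpl23*, *Mrpl45*, *Mrps25*, *Mrps15* and *Mrpl51* lay above 0 under each of the 3 other scalings.

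**Figure D2:**
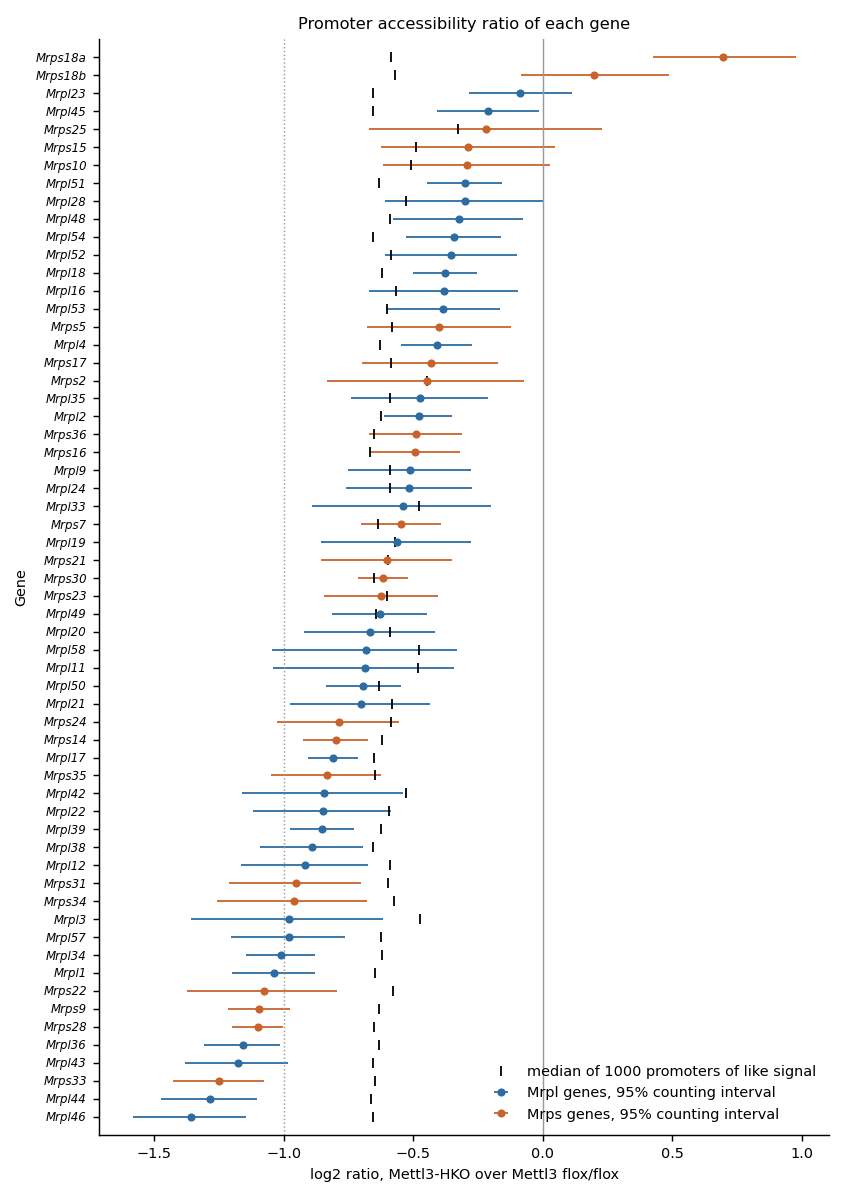
Log2 ratio of Mettl3-HKO over control (x axis) for each of the 60 promoters in order, with 95% counting intervals, blue for *Mrpl* and orange for *Mrps* genes; black ticks give the median of 1000 promoters of like signal. The ratios form an unbroken series from −1.36 at *Mrpl46* to −0.09 at *Mrpl23*, and *Mrps18b* and *Mrps18a* stand to the right of 0.

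The order of the members was fine-grained. All 59 neighbouring pairs in the order had overlapping intervals, whose median width was 0.46 on the log2 scale (0.19 to 0.90). Wholly below the members' median lay 19 intervals (31.7%, beside 25.2% of all promoter regions), wholly above it 14 (23.3%, beside 33.5%), and 27 held it.

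The strongest promoter by mean level was *Mrps28* with 34.7 RPM, followed by *Mrpl17* (33.4) and *Mrps30* (32.6). *Mrpl17*, a homologue of a bacterial protein of the large subunit, had 2244 and 1406 reads (−0.81), and *Mrps30*, whose product also sits in the large subunit, 2084 and 1491 (−0.62). *Mrps9* had 23.5 RPM and *Mrpl39* 20.8, with 1414 and 860 reads at the latter (−0.85). *Mrpl18*, the homologue of a bacterial protein that binds 5S ribosomal RNA, had 19.8 RPM and 1180 and 997 reads (−0.38). High signal went with ratios from −0.38 to −1.10 among these 6 genes.

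Stronger promoters had lower ratios, in the members as elsewhere. The 20 members of lowest signal (1.57 to 4.50 RPM) had a median log2 ratio of −0.46, the 20 of middle signal (4.61 to 8.88 RPM) of −0.65 and the 20 of highest signal (9.18 to 34.7 RPM) of −0.75. Pearson r between log2 mean RPM and the log2 ratio was −0.32 over the 60 members and −0.37 over all promoter regions, both computed from the same counts as the ratio. Each member was therefore set beside the 1000 promoters closest to it in mean RPM. The median difference was −0.013 on the log2 scale, from −0.70 to 1.28, with 32 members below and 28 above their neighbours in signal. Counting intervals lay wholly below that median at 20 members, beside 28.9% of all promoter regions, and wholly above it at 10, beside 28.4%. For the 45 members with no other gene start in the window the median difference was −0.062, and over 76 regions at RefSeq starts −0.070. The members as a group thus sat near the level of other promoters of their strength, and the count of intervals above was below the background share.

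**Figure D3:**
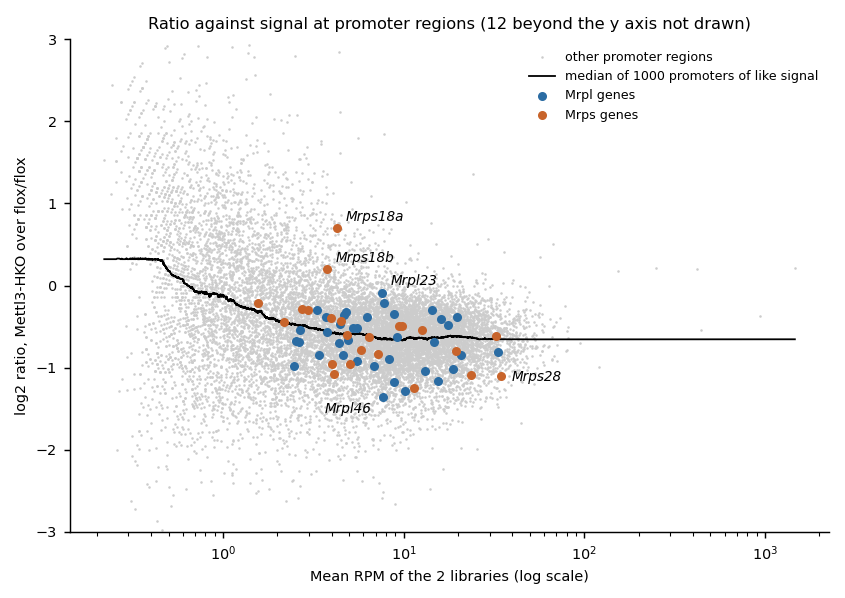
Log2 ratio of each promoter region against its mean RPM over both libraries (x axis, log scale), grey for other promoter regions, blue and orange for the 60 members, and a line for the median of the 1000 nearest in signal; 12 other promoter regions lie beyond the y axis. Members scatter on both sides of the line, with *Mrps18a*, *Mrps18b* and *Mrpl23* above and *Mrpl46* and *Mrps28* below it.

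The subunits were compared by name. The 37 *Mrpl* promoters had a median log2 ratio of −0.67, with 35 called lower (94.6%) and 0 higher, and the 23 *Mrps* promoters of −0.60, with 18 called lower (78.3%) and 1 higher, beside 71.5% and 7.51% of all promoter regions. With *Mrps18a* and *Mrps30* counted in the large subunit, where their products sit, the medians were −0.63 and −0.60. The SD was 0.32 among *Mrpl* and 0.44 among *Mrps* promoters. The 35 genes with a bacterial homologue had a median of −0.54 and the 25 mitochondria-specific ones of −0.69, at 0.0062 and −0.19 from promoters of like signal. Members are not replicates, and none of these gaps was tested.

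Several genes with known roles are among them. *Mrpl12*, the stalk protein that contacts translation factors, had 379 and 220 reads (−0.92, interval −1.17 to −0.68). *Mrpl58*, a peptidyl-tRNA hydrolase built into the large subunit, had 164 and 112 (−0.68). *Mrps5*, a homologue of a bacterial protein tied to the accuracy of decoding, had 238 and 198 (−0.40). All 3 were called lower, beside 71.5% of all promoter regions. The product of another member, *Mrps36* (583 and 456 reads), is now assigned to the alpha-ketoglutarate dehydrogenase complex.

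The 8 genes with no promoter region by the rule were *Mrpl13*, *Mrpl14*, *Mrpl15*, *Mrpl27*, *Mrpl40*, *Mrps11*, *Mrps12* and *Mrps27*. The table credits a region to 1 gene by the distance to its start, and each of the 8 had a region at its start in RefSeq, credited to a neighbour at all except *Mrpl15*. The start was the edge of the RefSeq gene for 9 family genes without a promoter sequence, *Mrpl13* and *Mrpl15* among them. RefSeq lists 78 coding genes of the family, of which 10 (*Mrpl10*, *Mrpl30*, *Mrpl32*, *Mrpl37*, *Mrpl41*, *Mrpl47*, *Mrpl55*, *Mrps6*, *Mrps18c* and *Mrps26*) are not named in the table at all, and each of the 10 also had a region at its start. All 18 were called lower, beside 71.5% of all promoter regions, from −1.36 to −0.35 on the log2 scale and −0.87 at the median. *Mrpl47*, next to the complex I gene *Ndufb5*, had 2147 and 1224 reads (−0.95), and *Mrps18c*, next to *Helq*, 471 and 250 (−1.05). *Mrps12*, whose product lies at the decoding centre, shares its region with the mitochondrial seryl-tRNA synthetase gene *Sars2* and had 471 and 404 (−0.36). *Mrps11* shares the *Mrpl46* region, with starts 42 bp apart on opposite strands, so the lowest member promoter serves a gene of each subunit.

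Over the 76 distinct regions at RefSeq starts the median log2 ratio was −0.67, with 70 called lower and 0 higher, beside 71.5% and 7.51% of all promoter regions. The region of *Mrpl15* had 612 and 346 reads (−0.96). It is centred 59 bp from the edge of the RefSeq gene and spans it, but lies at −1125 bp from the start used in the table, just outside the window. *Mrpl4* alone had no region within 1000 bp of the start so taken, while its member region (975 and 806 reads, −0.41) is centred 145 bp from the start in the table.

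Many of these genes have a neighbour that starts close by. The start of another gene lay within 1000 bp of the region's centre at 33 of the 77 genes, in 29 cases head to head and divergent, with a median of 141 bp between the starts (8 to 1246 bp). In 3 cases the genes overlapped head to head, and *Mrps6* and *Slc5a3* run on the same strand. By RefSeq starts with a promoter sequence alone, 26 of 69 family genes (37.7%) were divergent, against 2034 of 10169 coding genes (20%). The median log2 ratio was −0.62 for the 15 member promoters with another gene start in this window and −0.62 for the 45 others. Where 1 region covers both starts, the reads cannot be split between the genes.

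Other genes of the same pathways were read from fixed lists. Of 66 genes listed for mitochondrial translation under other names, 49 had a promoter region, and 45 were called lower and 0 higher, with a median log2 ratio of −0.74. All 10 translation factors with a promoter region (of 14 listed) were called lower, from *Gfm1*, the mitochondrial elongation factor G, with 547 and 223 reads (−1.43), to the initiation factor *Mtif3* with 226 and 196 (−0.34). Of 13 aminoacyl-tRNA synthetases (of 19 listed) 12 were called lower, led by *Mars2* with 1232 and 533 reads (−1.34). Assembly and rRNA modification factors numbered 19 (of 23 listed), of which 16 were called lower, with *Fastkd2* lowest at 730 and 267 reads (−1.58). All 4 mitochondrial transcription genes (of 5 listed) were called lower, among them *Tfam*, which packages mitochondrial DNA, with 772 and 406 (−1.06), and so were all 3 ribosomal protein genes with other names (of 5 listed). These counts stand beside 71.5% of all promoter regions called lower and 7.51% called higher.

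Nuclear genes of oxidative phosphorylation (69 promoters) had a median of −0.67, with 64 called lower and 0 higher, beside 71.5% and 7.51% of all promoter regions. The 67 promoters found by the names of cytosolic ribosomal proteins, which take in *Rps19bp1* and *Rpl10l*, had a median of −0.51, with 64 called lower and 1 higher. Against promoters of like signal the medians were 0.13 for the cytosolic list, −0.013 for the members, −0.025 for oxidative phosphorylation and −0.15 for the other mitochondrial translation genes. The gaps between these lists were not tested.

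**Figure D4:**
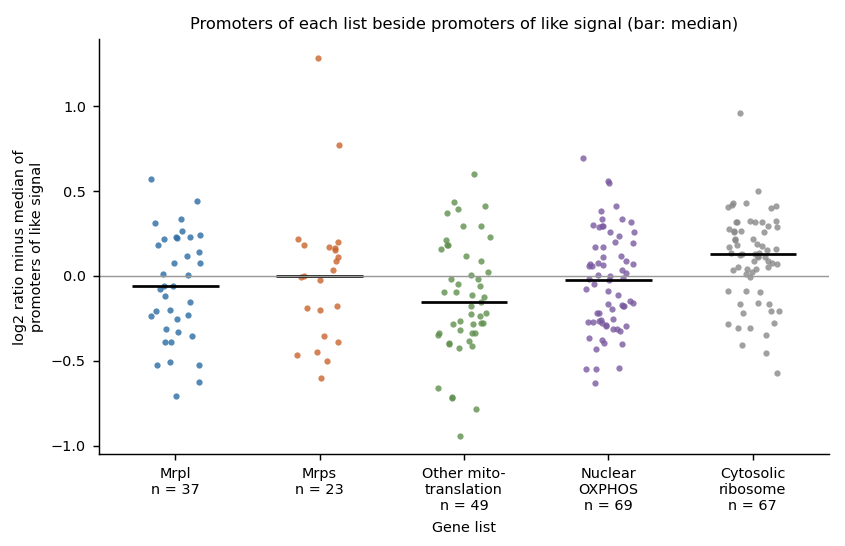
Log2 ratio minus the median of the 1000 promoter regions nearest in signal (y axis) for each promoter of 5 gene lists, with a bar at the median of each list and random sideways spread. The lists overlap widely, and the 2 highest points among *Mrps* genes are *Mrps18a* and *Mrps18b*.

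Away from the promoters, 52 regions were credited to 25 member genes. Their median count was 93.5 in the control and 78.5 in the Mettl3-HKO library. The median log2 ratio was −0.59, against −0.27 for all regions outside promoters, with a range of −1.61 to 1.91. The exact binomial test called 26 of them lower (50%, beside 41.0% of all regions outside promoters) and 6 higher (11.5%, beside 23.1%). At least 2-fold fewer reads were found at 13 (25%, beside 18.8%) and at least 2-fold more at 4 (7.69%, beside 15.6%). Under the other scalings the median ran from −0.21 to 0.061, so the direction here also rests on the scaling. Centred on the median of all regions, 17 were called lower and 8 higher (32.7% and 15.4%, beside 24.8% and 34.9% of all regions outside promoters). Centred on the strongest promoters they numbered 9 and 15 (17.3% and 28.8%, beside 15% and 45.3%), and scaled to the reads on the regions 13 and 12 (25% and 23.1%, beside 19.6% and 39.8%).

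At least 3 regions outside the promoter window were credited to each of 7 genes, and at 3 of these, *Mrpl14* (5 regions), *Mrps33* (4) and *Mrpl1* (3), every such ratio was below 0, although 1 region of each was not called. These were 59 and 51 reads at *Mrpl14* (−0.34, interval −0.92 to 0.22), 43 and 34 at *Mrps33* (−0.47, −1.17 to 0.21) and 159 and 149 at *Mrpl1* (−0.23, −0.56 to 0.10), and the side of 0 here rests on the scaling. In the first intron of *Mrpl14*, 8145 bp from the start, 263 reads faced 94 (−1.61), and in that of *Mrps33*, 3589 bp from the start, 285 faced 137 (−1.19). Regions of *Mrpl14* further out, past the end of the gene, had 301 and 136 (−1.28) and 154 and 109 (−0.63). A region may belong to another gene than the one it is credited to.

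The 4 regions with a peak in the Mettl3-HKO library alone were those at least 2-fold higher, and all had low counts. These regions are listed only through their Mettl3-HKO reads, so a high ratio was built in by the selection. The one credited to *Mrpl33*, in the last intron of *Rbks*, had 7 and 32 reads (1.91, interval 0.85 to 3.48). *Mrps11* had 27 and 104 (1.77) past its end, whereas a region inside the gene had 87 and 44 (−1.10). *Mrps28* had 33 and 94 (1.35) in the first intron of *Tpd52*, and *Mrps31* 25 and 58 (1.05). In addition, regions credited to *Mrps23* (36 and 78 reads) and *Mrps24* (45 and 76 reads) were called higher, inside *Cuedc1* and *Urgcp*. None of these 6 lay within 10 kb of the member's start, and the promoters of the same genes were lower, or for *Mrps11* the region it shares with *Mrpl46*.

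**Figure D5:**
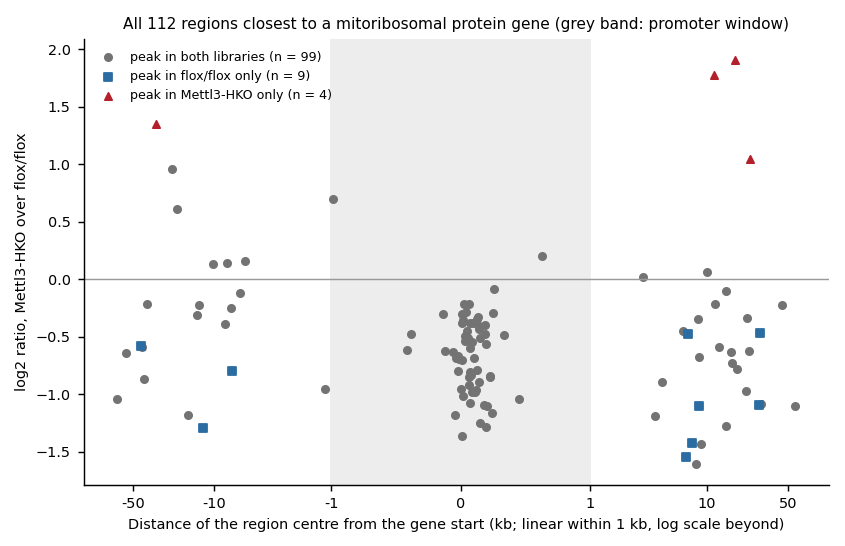
Log2 ratio of all 112 member regions (y axis) against the distance of the region centre from the gene start in kb (linear within 1 kb, log scale beyond), with the promoter window in grey and symbols for the libraries in which a peak was called. Peaks of the Mettl3-HKO library alone (4 triangles) lie above 1 and far from the start, and 9 regions with a peak in the Mettl3 flox/flox library alone (squares) lie below 0. Peaks and ratios come from the same reads, so the side on which these symbols lie is largely given in advance.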

How the data were processed

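ATAC-seq was analysed for 1 Mettl3 flox/flox and 1 Mettl3-HKO library. The authors trimmed adaptors with skewer, aligned with BWA to GRCm38, dropped mitochondrial and improperly paired reads, and called peaks with MACS2 without removing duplicates. The counting of reads on regions and any Tn5 shift of read ends are not given in the sources used here. The authors deposited, for each region, raw counts of each library, RPM values (counts scaled by the library total) and a fold enrichment, a ratio of read density in the region to that in the genome. A deposited log2 ratio is the authors' own comparison and was not used.

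Of 74821 rows, 5272 repeated a region and were left out. Library totals were recovered from the RPM values. The 2 counts of a region were set against the library totals in an exact conditional binomial test (two-sided, Benjamini-Hochberg over all 69549 regions, threshold 0.05). Intervals are Clopper-Pearson 95% intervals turned into log2 ratios. Tests, intervals and calls compare the libraries and cover counting error only, and duplicates make counts less independent than assumed. The members and gene lists were chosen with earlier results of these data known. Named were the 6 promoters of highest mean RPM, the 6 highest and 6 lowest ratios, the 5 farthest from promoters of like signal on each side, calls against the median, genes without a promoter region and a fixed set by role. Others are given with their counts. Gene starts, strand and promoter windows at RefSeq starts came from RefSeq (GRCm38.p6), with the 5′ edge of the RefSeq gene, on the strand given in the table, for 9 family genes without a promoter sequence. Sequences were printed only up to the start and cut where another gene begins. The test was checked on simulated counts with counting error alone, which does not bear on duplicates, the scaling or differences between mice. Alternatives were other scalings, added reads, windows, filters, gene matching and numbers of nearest promoters. The use of regions at RefSeq starts was chosen after seeing the data. Computations ran in Python 3.11.15 (scipy 1.17.1, pandas 2.3.3, numpy 2.4.6), and plots in matplotlib 3.10.9.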

Additional observations from a re-analysis of the deposited data

How the results depend on the processing

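No paired analysis was possible because each group has 1 pooled library and the result comes from no test across mice. No library could be left out, for the same reason. Windows of 500 and 2000 bp, summing the regions of a gene, a minimum of 50 counts, leaving out promoters with another gene start in the window and matching by RefSeq symbol left the medians and the calls lower within the limits set for them. Adding 10 reads did so for the medians, and other sets of promoters of like signal for the median difference from them, and neither was run for the calls. The calls higher went from 1 to 0 with a window of 500 bp and with regions at RefSeq starts, since *Mrps18a* then had no region or another one. Centring on all regions, on the strongest 10% of promoters and scaling to reads on regions gave, in that order, member medians of −0.24, 0.025 and −0.11, large subunit medians of −0.29, −0.022 and −0.16, and small subunit medians of −0.23, 0.043 and −0.091. Regions outside promoters had medians of −0.21, 0.061 and −0.073. Members at least 2-fold lower numbered 0, 0 and 0, and members at least 2-fold higher 1, 1 and 1. Members called lower numbered 30, 18 and 23, and members called higher 3, 13 and 5. In the same order, *Mrpl45* became 0.16, 0.43 and 0.30, *Mrpl23* 0.29, 0.56 and 0.42, *Mrps25* 0.16, 0.43 and 0.29, *Mrps15* 0.089, 0.36 and 0.22, and *Mrpl51* 0.076, 0.34 and 0.21. *Mrps5* became 0.25 and 0.11 and *Mrpl18* 0.27 and 0.13 when centred on the strongest promoters and scaled to reads on regions, and *Mrps30* 0.028 in the former. These shifts follow from the scaling itself, which moves every region by the same amount. The difference from promoters of like signal does not depend on it. Counts under 100, as at *Mrps25* and in many regions outside promoters, leave intervals wider than most gaps between genes.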
